A study of Mus musculus with 16 samples.

Results

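Wild-type (Wt) mouse embryonic stem cells (ESCs) were compared before differentiation and on day 3 of it, without doxycycline. All libraries with these labels were taken, 2 biological replicates at day 0 and 2 at day 3, which makes 4 of the 16 libraries of the series. The cells are a female F1 hybrid line (129/Sv by Cast/Ei, here 129 and Cast), so that reads over a variant can be given to 1 parental chromosome. In these cells, and in the Spen-/- cells made from them, the endogenous Xist promoter of the Cast X chromosome was replaced by a doxycycline-responsive one, so without the drug it is the 129 X that is inactivated during differentiation. ESCs were kept with serum and LIF on irradiated male C57BL/6 fibroblasts (feeder cells), which were depleted before plating, and the monolayer was then differentiated without LIF in a medium with serum and ascorbic acid. The Spen-/- cells, used below for comparison, carry a deletion of the Spen reading frame in this line. The sources used here do not say whether day 0 RNA was taken before or after the feeders were depleted. Day 0 and day 3 therefore differ in medium and LIF, and may differ in feeders, as well as in time, and these cannot be told apart.

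Naive ESCs resemble the preimplantation epiblast and are held in that state by LIF through STAT3 and by a circuit of transcription factors that includes Nanog, Esrrb, Klf4, Tfcp2l1 and Tbx3. When LIF is withdrawn, the circuit comes apart, and cells pass through a formative stage, marked by Fgf5, Otx2 and Dnmt3b, before they form germ layers. The general factors Pou5f1 and Sox2 work in both states. In female cells the exit from the naive state goes along with the start of X chromosome inactivation by the long non-coding RNA Xist.

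The 4 libraries held 8199162 to 11769908 reads on genes, and 18005 to 21209 genes had at least 1 read. Replicate 2 of day 0 stood apart from replicate 1, with a correlation of log2 CPM between them of 0.883, against 0.953 at day 3, and with a score on the first principal component of -46.4 against -8.35. All 6 ESC markers checked (Pou5f1, Sox2, Nanog, Zfp42, Esrrb and Sall4) were detected in every library, and their summed level was 2561 and 3010 CPM (reads per 1000000 reads, TMM-scaled) at day 0 and 1151 and 1256 at day 3. The 7 defining markers of fibroblasts summed to 140.2 and 45.9 CPM at day 0 and 57.6 and 75.9 at day 3, and 0 to 2 of them were at 0 in a library. The 4 Y-linked genes checked as a sign of male feeder cells summed to 8.52 and 15.9 CPM at day 0, against 0.533 and 0 at day 3, so the days did not overlap. The part of feeder cells in the results below was not tested.

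Of 18150 genes tested, 78 (0.43%) rose and 173 (0.953%) fell from day 0 to day 3 (edgeR quasi-likelihood test, adjusted p under 0.05). The genes that fell include most of the naive pluripotency circuit and the early response genes Fos and Egr1, and those that rose include keratins, Fgf5, Fgf8, Nodal and the kinase gene Pim2. In bulk libraries, fewer cells that express a gene and less RNA of it per cell cannot be told apart. The median log2 fold change of all genes tested was 0.01, and leaving out day 0 replicate 1 moved it to 0.15. The number of calls depended on each library, with 311 rises and 362 falls without day 0 replicate 1, 27 and 58 without day 0 replicate 2, 14 and 16 without day 3 replicate 1, and 12 and 18 without day 3 replicate 2. DESeq2 called 478 rises and 658 falls, and a fit of the 4 libraries alone called none, with 2920 genes at an unadjusted p under 0.05. In the edgeR fit of all 16 libraries, 2426 of the 18150 genes had an unadjusted p under 0.05. Counts at that level in the lists below are to be read beside this share.

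**Figure D1:**
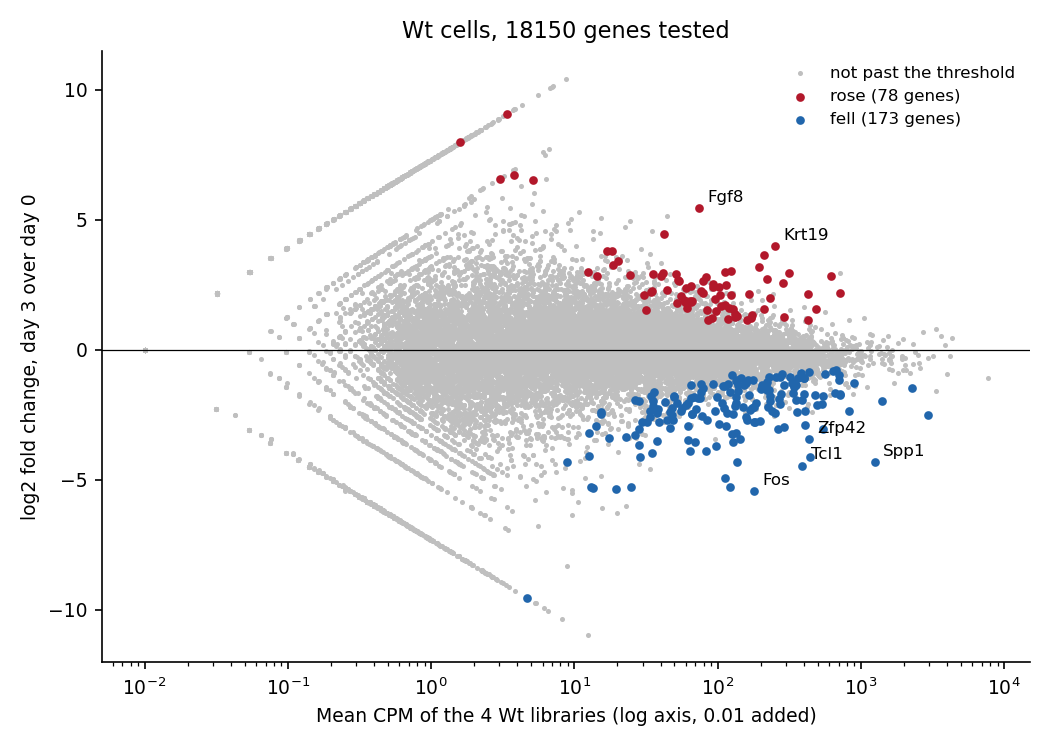
Log2 fold change from day 0 to day 3 (vertical axis) against the mean CPM of the 4 Wt libraries (horizontal log axis) for the 18150 genes tested, 1 point a gene. The 78 genes that rose are red and the 173 that fell are blue, and most calls lie above 10 CPM, where the spread of all genes is narrower.

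The promoters of 3 genes that the results below turn on are given from RefSeq (GRCm38.p6), since 2 of them belong to naive genes that fell together and 1 to the formative gene that rose. Each runs from 250 bases before the start site to 50 after it, 5′ to 3′ on the strand of the gene, and capitals mark matches on either strand to 3 short motifs, the octamer ATGCAAAT of Pou5f1-type factors, the Klf-type motif CACACCC and the Esrrb-type motif AAGGTCA.
Zfp42, chr8:43306960-43307259, minus strand: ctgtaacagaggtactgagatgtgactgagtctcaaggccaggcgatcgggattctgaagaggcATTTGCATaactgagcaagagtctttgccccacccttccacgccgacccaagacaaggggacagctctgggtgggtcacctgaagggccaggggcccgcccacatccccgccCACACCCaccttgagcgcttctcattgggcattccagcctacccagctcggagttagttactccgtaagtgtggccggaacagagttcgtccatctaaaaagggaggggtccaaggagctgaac
Esrrb, chr12:86360867-86361166, plus strand: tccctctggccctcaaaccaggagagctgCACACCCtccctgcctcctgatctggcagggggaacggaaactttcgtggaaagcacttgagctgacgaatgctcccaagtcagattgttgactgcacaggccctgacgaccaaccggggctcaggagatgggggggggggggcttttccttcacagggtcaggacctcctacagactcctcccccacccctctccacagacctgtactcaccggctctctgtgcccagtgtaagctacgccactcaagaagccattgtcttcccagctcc
Fgf5, chr5:98253934-98254233, plus strand: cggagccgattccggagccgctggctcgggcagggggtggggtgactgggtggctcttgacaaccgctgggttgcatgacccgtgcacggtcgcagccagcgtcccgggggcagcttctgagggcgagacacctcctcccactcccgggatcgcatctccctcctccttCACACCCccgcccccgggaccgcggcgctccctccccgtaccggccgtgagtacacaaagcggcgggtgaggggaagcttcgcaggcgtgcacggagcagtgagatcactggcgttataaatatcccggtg
The octamer lies in the Zfp42 promoter on the opposite strand, beginning at position -186 from the start site, and 1.74% of the 32851 promoters of this length in the table hold it. The Klf-type motif begins at position -74 in Zfp42, -221 in Esrrb and -81 in Fgf5, and 7.95% of all promoters hold it. The Esrrb-type motif, held by 4.72% of promoters, was in none of the 3. Of the 12 naive genes that fell, 7 had an entry in the table, and 1 of these held the octamer, 2 the Klf-type motif and 0 the Esrrb-type motif.

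Naive pluripotency genes made up 12 of the 173 falls. All 20 members of the list were tested, none rose, and the median log2 fold change was -2.79 against 0.01 for all genes. Zfp42 (Rex1), a marker of the naive state on chromosome 8 (43295063 to 43306980, GRCm38), had 717.8 and 878.6 CPM at day 0 and 63.4 and 83.6 at day 3, a log2 fold change of -3.44 ± 0.22 (SE; edgeR, adjusted p = 4.58e-05). Among the transcription factors, Esrrb had 244.2 and 189.1 CPM at day 0 and 41.8 and 37.3 at day 3, a change of -2.45 ± 0.35 (edgeR, adjusted p = 0.00506). Tfcp2l1, which acts downstream of LIF, went from 253.2 and 218.0 to 17.5 and 22.4 CPM, a change of -3.56 ± 0.47 (edgeR, adjusted p = 0.00358). Both factors were several-fold lower in each day 3 library than in either day 0 library. Tbx3, another factor of the circuit, had 245.7 and 274.9 CPM before and 7.19 and 19.1 after, a change of -4.31 ± 0.52 (edgeR, adjusted p = 0.00256). Nr0b1 (Dax1), an X-linked nuclear receptor, had 357.6 and 169.9 CPM before and 21.3 and 27.3 after, a change of -3.44 ± 0.65 (edgeR, adjusted p = 0.0265). Klf5 changed less, from 287.5 and 568.1 CPM to 144.3 and 116.5 (-1.71 ± 0.33, edgeR, adjusted p = 0.029).

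The other naive genes that fell have diverse roles. Tcl1, a cofactor of the kinase Akt, had 593.2 and 901.8 CPM at day 0 and 33.3 and 34.9 at day 3, a log2 fold change of -4.45 ± 0.37 (edgeR, adjusted p = 0.000309). Spp1, which encodes the secreted protein osteopontin, had 2431 and 2319 CPM before and 128.7 and 110.5 after (-4.31 ± 0.37, edgeR, adjusted p = 0.000309). Both were lower at day 3 by more than an order of magnitude, with close replicates at day 3. The 129 share of allele-specific Spp1 reads was 0.800 and 0.753 at day 0 and 0.649 and 0.596 at day 3 (edgeR, adjusted p = 0.913). The part of feeder RNA in the Spp1 values was not tested. Tdh, the threonine dehydrogenase on which mouse ESCs depend, went from 423.2 and 312.3 to 104.2 and 83.0 CPM (-1.97 ± 0.27). The maternal factor gene Dppa3 went from 102.1 and 134.7 to 30.2 and 34.9 CPM (-1.86 ± 0.31), and Dppa5a from 3414 and 6533 to 856.8 and 908.3 CPM (-2.49 ± 0.32). Tet2, which oxidizes methylated cytosine, went from 60.6 and 101.7 to 16.7 and 11.95 CPM (-2.50 ± 0.45, edgeR, adjusted p = 0.021).

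Of the 8 naive genes that did not pass the test, 7 had log2 fold changes from -4.18 to -1.66 and Nanog was the exception. Klf4 had 60.9 and 46.3 CPM at day 0 and 3.02 and 2.88 at day 3 (-4.18 ± 1.01, edgeR, adjusted p = 0.0691), and Klf2 had 46.3 and 61.9 against 4.44 and 6.89 (-3.25 ± 0.72, edgeR, adjusted p = 0.0519). Their days did not overlap, but the wide errors left them just outside the threshold. Nanog, the homeobox gene after which the naive circuit is often described, had 345.7 and 237.0 CPM at day 0 and 212.3 and 328.9 at day 3, so its days overlapped (-0.11 ± 0.31, edgeR, adjusted p = 0.94). The sign of the Nanog estimate turned when day 0 replicate 1 or day 3 replicate 1 was left out. DESeq2 called 17 of the 20 naive genes, and without day 0 replicates 1 and 2 and day 3 replicates 1 and 2 in turn, edgeR called 13, 9, 4 and 4.

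Of the 16 genes shared by naive and primed cells 3 fell and none rose, with a median log2 fold change of -0.61. Pou5f1 (Oct4), the central pluripotency factor, had 515.0 and 286.1 CPM at day 0 and 502.6 and 447.2 at day 3, so the days overlapped (0.25 ± 0.27, edgeR, adjusted p = 0.762). Its partner Sox2 had 74.2 and 92.5 CPM at day 0 and 32.0 and 21.6 at day 3, but did not pass the test (-1.64 ± 0.51, edgeR, adjusted p = 0.168). The members that fell were Sall4, a zinc finger factor, from 663.8 and 1327 to 298.5 and 337.3 CPM (-1.65 ± 0.35, edgeR, adjusted p = 0.0433), Rif1, a telomere and replication timing factor (-1.69 ± 0.27, edgeR, adjusted p = 0.00976), and Jarid2, a Polycomb cofactor (-1.03 ± 0.22, edgeR, adjusted p = 0.0469). Lin28a was nearly the same in every library, at 95.5 and 86.6 CPM against 87.0 and 88.4. Epcam, an adhesion protein of epithelia and ESCs, had 164.8 and 270.8 CPM before and 396.8 and 371.9 after (0.82 ± 0.26, edgeR, adjusted p = 0.168). Without day 0 replicate 1 there were 2 calls in this list and without any other of the 4 libraries there were 0.

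**Figure D2:**
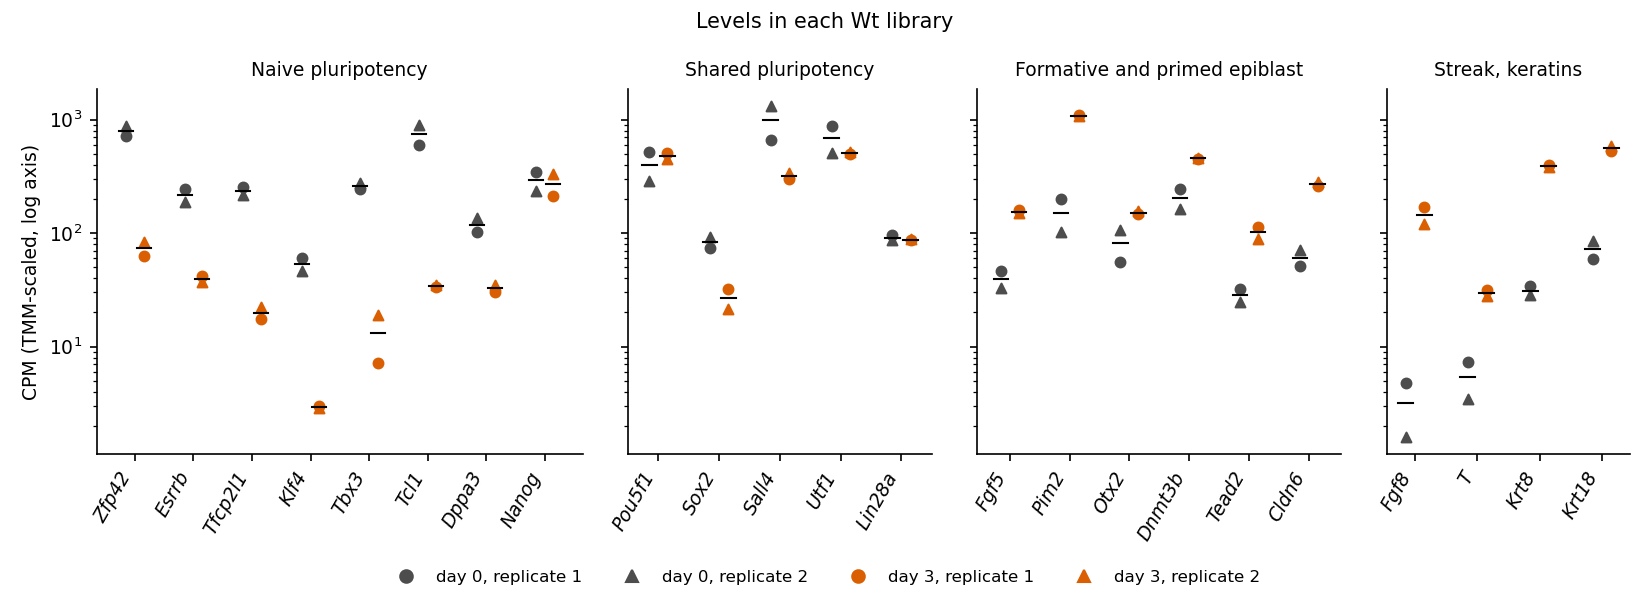
CPM (vertical log axis) of 23 genes in each of the 4 Wt libraries, grey for day 0 and orange for day 3, circles for replicate 1, triangles for replicate 2 and bars for the mean of 2 libraries. The naive genes other than Nanog drop at day 3, Pou5f1, Nanog and Lin28a overlap or nearly so, and Fgf5, Pim2, Fgf8 and the keratins Krt8 and Krt18 lie above their day 0 values.

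Of the 19 genes of the formative and primed epiblast 4 rose and none fell, with a median log2 fold change of 1.15. Fgf5, the ligand most used as a mark of this stage, had 46.0 and 33.1 CPM at day 0 and 158.2 and 149.4 at day 3 (1.96 ± 0.28, edgeR, adjusted p = 0.00506). Pim2, an X-linked kinase that promotes survival, went from 200.5 and 101.8 to 1101 and 1069 CPM (2.84 ± 0.37, edgeR, adjusted p = 0.00348). Cldn6, a tight junction protein, went from 50.8 and 71.0 to 259.3 and 284.2 CPM (2.16 ± 0.29, edgeR, adjusted p = 0.00402), and Tead2, a partner of Yap, from 32.0 and 24.7 to 113.7 and 89.5 (1.84 ± 0.33, edgeR, adjusted p = 0.0207). In all 4 genes the day 3 libraries lay closer together than the day 0 libraries on the log scale. The de novo DNA methyltransferase Dnmt3b had 246.6 and 164.6 CPM at day 0 and 452.2 and 459.5 at day 3, without passing the test (1.15 ± 0.29, edgeR, adjusted p = 0.0796). Otx2, a homeobox factor of the primed epiblast, had 55.4 and 107.2 against 146.8 and 155.2 CPM (0.89 ± 0.63, edgeR, adjusted p = 0.569). Dnmt3a overlapped between the days. Leaving out day 0 replicates 1 and 2 and day 3 replicates 1 and 2 in turn gave 5, 2, 2 and 1 calls in this list.

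Of the genes of later fates, those of the primitive streak and mesoderm had a median log2 fold change of 2.00 over 20 tested members of 21, with 1 call. For 6 of these 20 all reads of a day were 0, and with those set to a floor of 3 reads over the group the median was 2.02. That call was Fgf8, a growth factor of the streak, with 4.78 and 1.59 CPM at day 0 and 168.7 and 119.8 at day 3 (5.46 ± 1.19, edgeR, adjusted p = 0.0485), and it was lost when any of the 4 libraries was left out. The streak gene T (brachyury) had 7.30 and 3.44 CPM at day 0 and 31.4 and 27.9 at day 3 (2.45 ± 0.76, edgeR, adjusted p = 0.168), and the ligand gene Wnt3 had 4.00 and 3.83 against 48.6 and 36.9 (3.44 ± 1.19, edgeR, adjusted p = 0.211). Neither T nor Wnt3 overlapped between the days, but their spread over the 16 libraries was wide. Mixl1 had 2.78 and 3.31 CPM before and 26.8 and 5.58 after, so that 1 of the day 3 libraries was near the day 0 values. Among endoderm genes 0 of 18 tested passed edgeR's test, with 2 falls at an unadjusted p under 0.05, 1 fall called by DESeq2 and a median of -0.40. Gata6, a driver of primitive endoderm, had 0 reads at day 0 and 1 read in each day 3 library, under the floor of 3 reads (0.26 to 0.397 CPM in a library) in all 4. Sox17 had 6.34 CPM in day 0 replicate 1 and at most 0.355 in the others.

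Among neuroectoderm genes 1 was higher at an unadjusted p under 0.05, none rose in edgeR's test (1 by DESeq2), and 1 of 12 tested fell, with a median of -0.94 (-1.08 with 3 members set to the floor). That gene was Ncam1, a cell adhesion molecule found on ESCs as well as neurons, which had 78.0 and 86.3 CPM at day 0 and 10.3 and 10.3 at day 3 (-2.99 ± 0.44, edgeR, adjusted p = 0.00567), a call lost without either day 3 library. Sox1, the earliest marker of neuroectoderm, had 0 reads in all 4 libraries, and Pax6 had 4.26 and 0 CPM at day 0 and 1.15 and 1.31 at day 3. Nestin (Nes) had 8.51 and 9.39 CPM before and 45.5 and 49.4 after (2.40 ± 0.66, edgeR, adjusted p = 0.109). In the trophoblast list 2 of 14 tested rose (median 1.45, or 0.58 with 3 members set to the floor), and both are keratins of simple epithelia, while Gata3, one of its defining markers, had 7.99 and 7.40 CPM before and 6.48 and 7.15 after. The other 2 trophoblast genes used as defining markers, Krt7 and Elf5, summed with Gata3 to 8.43 and 17.7 CPM at day 0 and 32.9 and 22.5 at day 3. The 2-cell-like state had 0 calls of 11 tested by edgeR, 0 at an unadjusted p under 0.05 and 0 by DESeq2 (median 0.48).

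The keratin genes Krt8, Krt18 and Krt19 rose at day 3, and Krt7 did not pass the test, with 0.434 and 10.3 CPM at day 0 and 26.4 and 15.3 at day 3 (2.00, edgeR, adjusted p = 0.356). Krt8 (chromosome 15, 101996698 to 102004482) had 34.0 and 28.3 CPM at day 0 and 398.4 and 385.4 at day 3 (3.65 ± 0.25, edgeR, adjusted p = 4.58e-05), and its filament partner Krt18 had 58.6 and 85.0 against 529.0 and 583.3 (2.95 ± 0.29, edgeR, adjusted p = 0.000829). Krt19 went from 31.9 and 27.2 to 502.8 and 439.5 CPM (3.99 ± 0.46, edgeR, adjusted p = 0.00163). Krt8, Krt18 and Krt19 encode intermediate filaments of simple epithelia, and each day 3 library was several-fold above both day 0 libraries. A pseudogene of Krt8, Krt8-ps, moved the same way (3.79 ± 0.34), so the assignment of reads between these near-identical copies is uncertain. In the list for epithelial and mesenchymal state, which shares Krt8, 2 of 18 rose and 1 fell (median 0.61). The other rise was the tight junction gene Cldn7, from 15.4 and 26.7 to 159.4 and 130.0 CPM (2.79 ± 0.53, edgeR, adjusted p = 0.0282), and the fall was fibronectin, Fn1, from 337.8 and 256.1 to 116.6 and 94.2 CPM (-1.49 ± 0.25, edgeR, adjusted p = 0.0154). E-cadherin, Cdh1, had 178.7 and 151.0 CPM before and 487.4 and 466.4 after (1.53 ± 0.35, edgeR, adjusted p = 0.0605), and vimentin, Vim, had 147.5 and 128.0 against 56.4 and 42.1 (-1.48 ± 0.40, edgeR, adjusted p = 0.108). Fn1 was also the only call among 19 matrix and adhesion genes (median -0.24). This call was lost without either day 3 library, and without any 1 of the 4 libraries there was 1 rise in the epithelial list.

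Apart from genes already given, the largest rises were seen in genes of diverse roles. The 12 largest changes of each direction were taken among called protein-coding or long non-coding genes with at least 5 CPM on average and no overlap between the days. The largest rise was that of Slc22a23, a transporter family member, from 0.174 and 0 CPM to 15.4 and 4.89 (6.52 ± 1.24, edgeR, adjusted p = 0.0275). Pooled over replicates, it had 2 reads at day 0 and 229 at day 3. This ratio of CPM was 96.1, with an exact 95% interval of 26.3 to 799 that covers counting error and not the spread between replicates. Slc22a23 was followed by Fgf8 and by Espn, an actin-bundling protein, from 3.30 and 3.97 to 80.4 and 80.8 CPM (4.47 ± 0.98, edgeR, adjusted p = 0.049). Nefm, a neurofilament gene, went from 2.87 and 1.59 to 34.2 and 29.1 CPM (3.81 ± 0.79, edgeR, adjusted p = 0.04). The carbonic anhydrase Car2 went from 55.8 and 21.3 to 357.0 and 348.9 CPM (3.19 ± 0.42, edgeR, adjusted p = 0.00358). Trim54, Mapk12, Arhgef17 and Csrp1 rose by 2.99 to 3.41 on the log2 scale. Csrp1, a LIM protein of the actin cytoskeleton, went from 27.9 and 22.7 to 208.0 and 194.3 CPM.

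Among the largest falls were genes of the immediate early response. Fos, a subunit of the transcription factor AP-1, had 397.2 and 310.2 CPM at day 0 and 8.88 and 7.42 at day 3, a log2 fold change of -5.44 ± 0.57 (edgeR, adjusted p = 0.000861). Egr1, a zinc finger factor induced by ERK signalling, had 282.8 and 154.2 against 9.42 and 4.80 CPM (-4.94 ± 0.66, edgeR, adjusted p = 0.00358). Both genes are known for a fast and brief induction by serum and growth factors. Lyz2, the lysozyme gene best known from macrophages, had 277.5 and 198.4 CPM before and 6.84 and 5.32 after (-5.29 ± 0.79, edgeR, adjusted p = 0.0133). All its allele-specific reads came from 129, 849 and 426 at day 0 and 23 and 19 at day 3. Klb, a coreceptor for endocrine FGFs, had 27.0 and 25.9 CPM before and 0.266 and 1.05 after (-5.30 ± 1.003, edgeR, adjusted p = 0.0312). Hesx1, a homeobox repressor, went from 38.1 and 70.2 to 4.35 and 1.92 CPM (-4.10 ± 0.63, edgeR, adjusted p = 0.00861). Zfp367 went from 358.7 and 1325 to 44.5 and 52.6 CPM, a fall for which day 0 replicate 2 had the much higher value (-4.12 ± 0.67, edgeR, adjusted p = 0.0125). Pla2g4c and the non-coding genes Gm10522 and Gm36445 fell by 4.07 to 5.26 on the log2 scale from day 0 levels of 8.60 to 42.7 CPM.

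Genes of signalling pathways were then grouped by role. In the LIF and STAT3 list 2 of 12 fell and none rose (median -0.77). Lifr, a subunit of the LIF receptor, had 95.2 and 123.5 CPM at day 0 and 14.6 and 13.8 at day 3 (-2.95 ± 0.63, edgeR, adjusted p = 0.0463). Without day 0 replicate 2 there was 1 call in this list, and without either day 3 library there was 0. Stat3 itself had 180.6 and 63.7 CPM before and 49.1 and 42.1 after, with a wide spread at day 0 (-1.42 ± 0.67, edgeR, adjusted p = 0.394). In the FGF and ERK list 4 of 16 fell and none rose (median -0.31). Besides Fos and Egr1, these were the ligand gene Fgf4, with 151.6 and 485.7 CPM before and 40.4 and 53.8 after (-2.76 ± 0.58, edgeR, adjusted p = 0.0433), and the feedback inhibitor gene Spry2, with 579.5 and 1364 against 108.5 and 127.5 (-3.04 ± 0.61, edgeR, adjusted p = 0.0332). The ERK phosphatase gene Dusp6 and the target gene Etv5 did not pass (edgeR, adjusted p = 0.824 and 0.714). At an unadjusted p under 0.05 by edgeR, 3 genes of this list were higher and 4 lower, and DESeq2 called 2 rises and 4 falls. Without day 0 replicates 1 and 2 and day 3 replicates 1 and 2 in turn, 4, 2, 1 and 1 of the FGF and ERK genes were called as fallen. In the Nodal list the only call of 16 was Nodal, a ligand of the epiblast and streak, which rose from 49.1 and 37.0 to 134.8 and 117.1 CPM (1.55 ± 0.30, edgeR, adjusted p = 0.0312). The list median was -0.32, and the call was lost without day 0 replicate 2 and without either day 3 library. Its coreceptor Tdgf1 and its inhibitors Lefty1 and Lefty2 had log2 fold changes of -0.51, -0.46 and -0.79 that did not pass.

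Wnt and BMP genes gave no calls. By edgeR, 0 of 17 Wnt genes passed, with 3 at an unadjusted p under 0.05 (2 higher, 1 lower), 2 called by DESeq2 and a median of 0.00. Over all 18150 genes, 2426 were at that unadjusted p. Of the BMP genes 0 of 16 passed, with 3 lower at an unadjusted p under 0.05, 2 called by DESeq2 and a median of -0.61. The BMP ligand gene Bmp4 had 86.8 and 46.8 CPM at day 0 and 29.0 and 22.9 at day 3 (-1.36 ± 0.34, edgeR, adjusted p = 0.0796), and the target gene Id3 had 154.7 and 89.9 against 43.2 and 51.6 (-1.37 ± 0.44, edgeR, adjusted p = 0.174).

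Among genes of DNA methylation 3 of 12 fell and none rose (median -0.13). Zfp57, which keeps imprints methylated, went from 396.1 and 641.5 to 74.3 and 59.5 CPM (-2.95 ± 0.40, edgeR, adjusted p = 0.00402), and Tet1, an enzyme that starts demethylation, from 296.3 and 326.7 to 142.7 and 101.3 (-1.35 ± 0.24, edgeR, adjusted p = 0.0205), beside Tet2 above. Without day 0 replicate 2 there was 1 call in this list, and without either day 3 library there was 0. The maintenance methyltransferase Dnmt1 overlapped between the days, at 181.4 and 132.3 against 157.1 and 164.7 CPM. Of 29 imprinted genes tested, Sgce rose from 12.7 and 7.14 to 71.2 and 70.9 CPM (2.83 ± 0.57, edgeR, adjusted p = 0.0363) and Phlda2 fell from 46.4 and 81.7 to 11.7 and 11.9 (-2.44 ± 0.53, edgeR, adjusted p = 0.0479), with a list median of 0.17. Both calls were lost without day 0 replicate 2 or either day 3 library.

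Metabolic and stress lists held few calls. None of 20 glycolysis and hypoxia genes passed edgeR's test (median 0.37), with 7 higher and 2 lower at an unadjusted p under 0.05 and 5 higher and 2 lower by DESeq2. The glucose transporter gene Slc2a1 had 851.9 and 411.7 CPM before and 1389 and 1550 after (1.22 ± 0.32, edgeR, adjusted p = 0.0929). In cholesterol synthesis 1 of 20 fell and none rose (median 0.10). In the ATF4 list 1 of 16 fell (median -0.69), the stress gene Nupr1, from 32.3 and 68.0 to 6.48 and 5.58 CPM (-3.05 ± 0.64, edgeR, adjusted p = 0.0418). The calls of these lists were lost without day 0 replicate 2 or either day 3 library. Of 16 p53 targets 2 rose (median 0.49), Phlda3 from 39.3 and 14.7 to 207.2 and 238.7 CPM (3.04 ± 0.45, edgeR, adjusted p = 0.00678) and the cyclin gene Ccng1 from 263.9 and 269.2 to 535.9 and 639.8 (1.14 ± 0.21, edgeR, adjusted p = 0.0212). Without day 0 replicate 1 there were 3 rises in this list, without day 0 replicate 2 there was 1, and without either day 3 library 0. The cell cycle inhibitor gene Cdkn1a, a classic p53 target, had 321.6 and 273.5 CPM before and 394.7 and 379.6 after (0.38 ± 0.21, edgeR, adjusted p = 0.468). Of 17 regulators of G1 and S phase 0 passed edgeR's test, with 5 lower at an unadjusted p under 0.05, 2 called by DESeq2 and a median of -0.21.

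**Figure D3:**
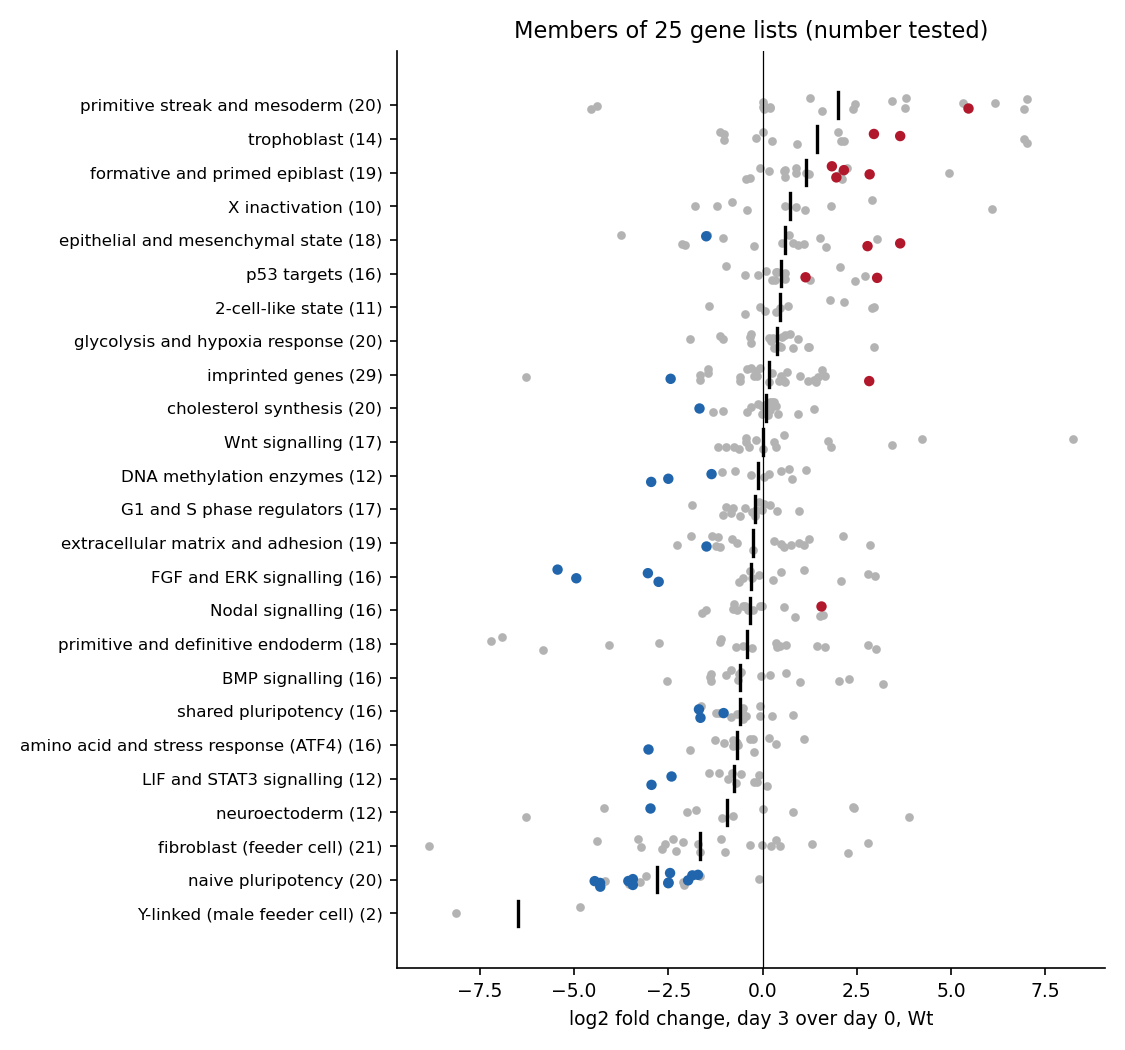
Log2 fold change from day 0 to day 3 in Wt cells (horizontal axis) of the tested members of 25 gene lists, 1 point a gene, with the list's median as a black bar. Called rises are red and called falls blue, and 12 of the 251 calls are the 12 blue points of the naive list, whose median of -2.79 is the lowest of the lists with more than 2 tested members.

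The same interval was compared in Spen-/- cells, which lack the repressor SPEN, because they are separate libraries of the same design. There 104 genes (0.573%) rose and 119 (0.656%) fell by the same test. Of the 78 genes that rose in Wt cells, 77 had a positive log2 fold change in Spen-/- cells and 46 were called there, which is 59.0% of the Wt rises and 44.2% of the Spen-/- rises. Of the 173 that fell, all 173 had a negative value in Spen-/- cells and 86 were called, 49.7% of the Wt falls and 72.3% of the Spen-/- falls. The share of like signs over all genes tested is not given here, so these counts of signs have no background to be read against. The median log2 fold change of the Wt rises was 2.28 in Wt and 1.97 in Spen-/- cells, and that of the falls was -2.10 and -1.58. The genes were picked on the Wt values, so a smaller median in the other genotype is not a measured difference. The naive list had 13 falls in Spen-/- cells (median -2.87), the formative list 3 rises (median 0.84). The primitive streak and mesoderm list had 0 rises there and a median of 0.26, against 1 rise and a median of 2.00 in Wt cells. The difference was not tested for the list, and members at 0 reads were not set to a floor for the Spen-/- median. Its best-read members had large positive values in both genotypes. In Spen-/- against Wt cells, Fgf8 had 4.17 against 5.46, T 3.81 against 2.45 and Wnt3 4.56 against 3.44. Eomes had 2.71 against 1.58 and Mixl1 2.59 against 2.41. At day 0 the replicates of both genotypes differed in the same direction, with scores on the first principal component of -8.35 and -46.4 in Wt and -19.65 and -57.48 in Spen-/- cells, and a correlation of the replicate differences of 0.25 over 9224 genes. At day 3 it was -0.0636. The part of this shared day 0 difference in the like signs of the 2 genotypes was not tested.

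No gene passed the test of the difference between the genotypes (0 of 18150, edgeR, 622 at an unadjusted p under 0.05), and DESeq2 called 2. Among the 6 genes with the smallest p was Krt8, which in Spen-/- libraries had 14.7 and 10.2 CPM before and 547.1 and 414.3 CPM after, a change larger than that of Wt cells by 1.61 ± 0.32 on the log2 scale (edgeR, unadjusted p = 0.000312, adjusted p = 1). Krt18 differed by the same amount, 1.61 ± 0.39, from 38.6 and 20.7 CPM to 744.4 and 663.3 in Spen-/- libraries. The others were Dennd2d, Tchh, Aldh1b1, Tgfbr3 and Dip2c, of which the first 3 had both Spen-/- libraries of 1 day at 0 reads.

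**Figure D4:**
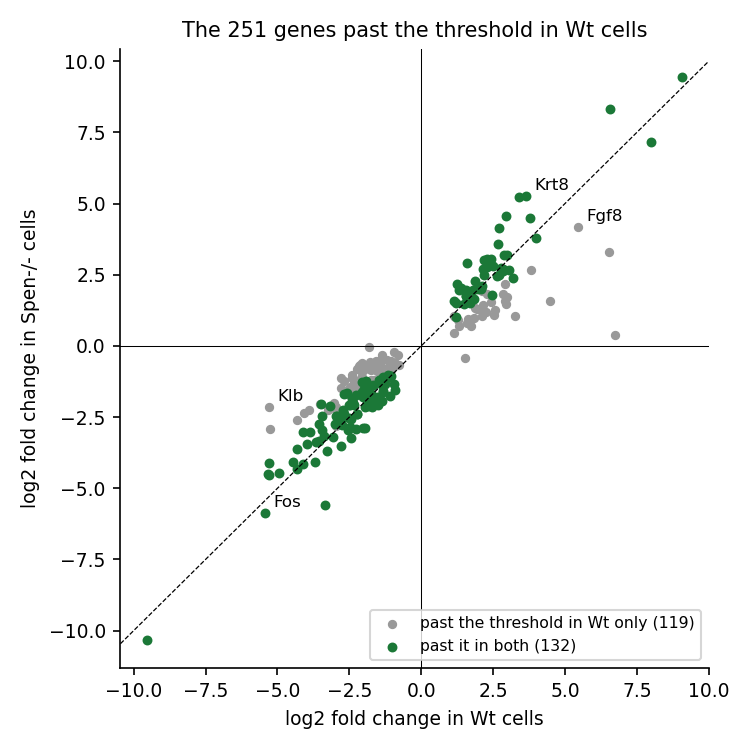
Log2 fold change from day 0 to day 3 of the 251 genes called in Wt cells, in Wt (horizontal axis) and in Spen-/- cells (vertical axis), with a dashed line of equal change. The 132 genes called in both genotypes are green, the 119 others grey, and 1 gene has opposite signs.

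Allele-specific reads were then compared, since they separate the chromosome that is inactivated (129) from the one that stays active (Cast). Genes needed more than 20 such reads over both replicates of each day, which left 8340 genes, 290 of them X-linked. The median 129 share of X-linked genes was 0.486 and 0.5 at day 0 and 0.434 and 0.456 at day 3, or 0.493 ± 0.00982 against 0.445 ± 0.0156 (SD, n = 2), and the days did not overlap. The exact two-sided permutation test over libraries gave p = 0.333, the smallest that 2 against 2 allows. The median of autosomal genes, measured the same way, was 0.522 and 0.514 at day 0 and 0.5 in both libraries at day 3. The change of the X-linked median from day 0 to day 3 was -0.0477, and -0.0299 after the autosomal median of the same library was subtracted. The share was lower at day 3 for 186 X-linked genes (64.1%) and higher for 100, and among 8038 autosomal genes it was lower for 4457 (55.4%). In Spen-/- cells the X-linked medians of the same genes were 0.537 and 0.520 at day 0 and 0.5 and 0.519 at day 3.

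Single X-linked genes did not pass the allelic test (0 of 290, edgeR, with 8 lower and 3 higher at an unadjusted p under 0.05). Of the 8038 autosomal genes, 191 were lower and 89 higher at that level. Rlim (Rnf12), an X-linked activator of Xist, had a 129 share of 0.455 and 0.473 at day 0 and 0.407 and 0.373 at day 3 (edgeR, adjusted p = 1). Its total level was 860.0 and 1029 CPM at day 0 and 731.4 and 692.2 at day 3 (-0.41 ± 0.18, edgeR, adjusted p = 0.359). Xist had 27.5 and 46.3 CPM before and 67.0 and 44.7 after, so the days overlapped (0.60 ± 0.48, edgeR, adjusted p = 0.625). Its 129 reads were 16 of 44 in day 0 replicate 1 (0.364, Wilson 95% interval 0.238 to 0.511), 48 of 56 in replicate 2 (0.857, 0.743 to 0.926), 62 of 82 (0.756, 0.653 to 0.836) and 78 of 85 (0.918, 0.840 to 0.960) at day 3, where the interval covers counting error only. The day 0 replicates thus differed in which Xist allele gave most reads, and 3 of the 4 libraries had a majority from 129. Tsix, transcribed across Xist in antisense, had 18.1 and 22.1 CPM at day 0 and 7.73 and 3.84 at day 3 (-1.79 ± 0.73, edgeR, adjusted p = 0.307). Whether reads were counted by strand is not given in the sources used here, so Xist and Tsix may share reads where they overlap. None of 10 tested genes of the X inactivation list passed edgeR's test, with 1 higher and 2 lower at an unadjusted p under 0.05 and 0 called by DESeq2 (median 0.74).

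In total counts, 3 of 715 X-linked genes rose and 12 fell, beside 78 (0.43%) and 173 (0.953%) of all 18150 genes tested. The median log2 fold change of X-linked genes was -0.08 and that of autosomal genes 0.02, a difference of -0.10. It was -0.02 without day 0 replicate 2, -0.17 without day 0 replicate 1 and 0 when low genes were kept, so its size rests on these choices.

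Of all 8340 genes, 2 (0.024%) passed the allelic test, and both are autosomal. Acta2, smooth muscle actin, on chromosome 19 (34241090 to 34255590), had 356 reads from 129 and 10 from Cast in day 0 replicate 1, 76 and 0 in replicate 2, 184 and 145 in day 3 replicate 1, and 180 and 169 in replicate 2. Its 129 share was thus 0.973 and 1 at day 0 and 0.559 and 0.516 at day 3, a log2 odds ratio of -5.31 ± 0.54 (edgeR, adjusted p = 0.00327), while its total level of 129.8 and 47.5 against 113.1 and 115.9 CPM overlapped between the days. Pttg1, securin, on chromosome 11 (43420250 to 43426251), moved the other way, from 114 and 179 reads of 129 beside 996 and 1659 of Cast to 450 and 580 beside 1003 and 1192, or from shares of 0.103 and 0.0974 to 0.310 and 0.327 (2.07 ± 0.26, edgeR, adjusted p = 0.00444). Its total level overlapped between the days too, at 193.8 and 498.3 against 269.1 and 307.3 CPM. Without day 0 replicate 2 or without day 3 replicate 1 there was 1 call, and without day 3 replicate 2 there was 0.

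Acta2 is on the list of fibroblast genes, and the list as a whole, Acta2 included, was then read by allele. None of its 21 tested members of 22 passed edgeR's test in total counts, with 2 higher and 2 lower at an unadjusted p under 0.05, 1 called by DESeq2 and a median of -1.65. Its summed level was 563.2 and 249.6 CPM at day 0 and 345.7 and 344.5 at day 3. Of its allele-specific reads, a share of 0.810 and 0.765 came from 129 at day 0, and 0.532 and 0.509 at day 3. Acta2 gave 356 of the list's 880 reads from 129 in day 0 replicate 1 and 184 of 333 in day 3 replicate 1. The list share is thus not separate from that of Acta2, and the share without Acta2 is not given. Col1a1, a fibroblast collagen, had 57 reads from 129 and 0 from Cast in day 0 replicate 1 and 20 and 2 in replicate 2, against 12 and 13, and 19 and 26, at day 3 (edgeR, adjusted p = 0.824). Members of the list did not all move this way. Fbln2 had 126 and 49 reads from 129 beside 45 and 8 from Cast at day 0, and 39 and 14 beside 5 and 7 at day 3. Its 129 share was 0.737 and 0.860, then 0.886 and 0.667. Pdgfrb, on few reads, had shares of 1 and 0 at day 0 and 0.875 and 1 at day 3. The summed total level of the list therefore overlapped between the days while its summed 129 share did not. Reads of C57BL/6 feeder cells would be given to 129 wherever C57BL/6 and 129 share the base that Cast lacks, and the part of feeder RNA in these shares was not tested. The 2 Y-linked genes that were tested did not pass edgeR's test, with 0 at an unadjusted p under 0.05 and 0 by DESeq2. Eif2s3y had 0.348 and 15.7 CPM at day 0 and 0.533 and 0 at day 3, and Ddx3y had 6.95 CPM in day 0 replicate 1 and 0 reads in the other 3 libraries.

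**Figure D5:**
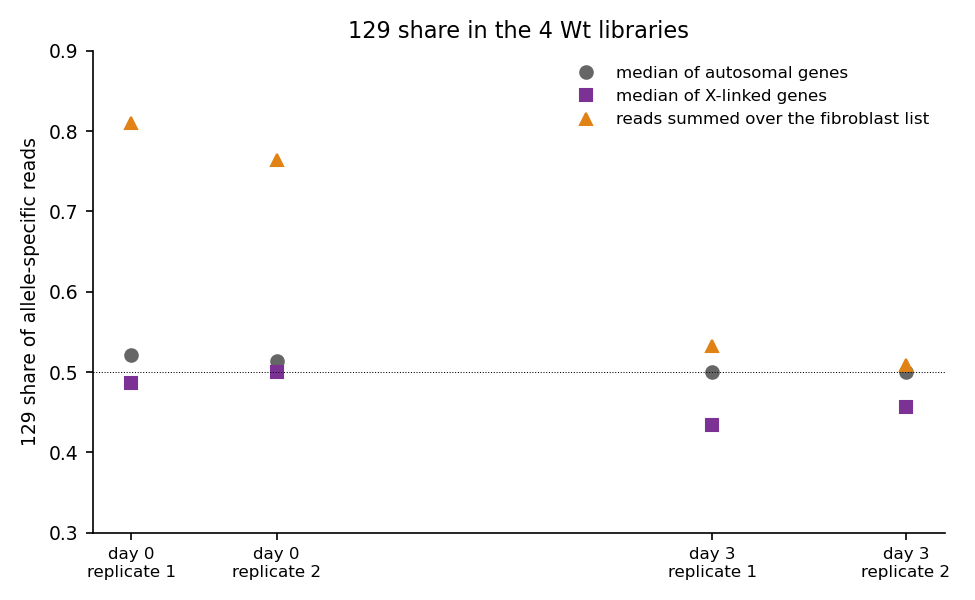
Share of allele-specific reads from 129 (vertical axis, from 0.3 to 0.9) in the 4 Wt libraries, as the median of 8038 autosomal genes (circles), the median of 290 X-linked genes (squares) and the reads summed over the fibroblast list, which includes Acta2 (triangles). The X-linked medians are 0.486 and 0.5 at day 0 and 0.434 and 0.456 at day 3, and the fibroblast share drops from 0.810 and 0.765 to 0.532 and 0.509.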

How the data were processed

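Libraries were made by the study with Smart-seq2 from small amounts of total RNA and sequenced as 50 bp single-end reads. According to the study's methods and processing notes, reads were aligned with HISAT2 2.2.1 to an mm10 genome with the 129/Cast variants masked, split by allele with SNPsplit and counted per gene by HTSeq 0.12.4. SAMtools 1.10 is also listed. The deposited files hold the authors' raw read counts per gene in 3 columns (129, Cast, unassigned), without normalization. Here the 3 were summed to total counts, lines for reads on no single gene (31.6% to 43.3% of reads in the 4 Wt files) were left out, and 55240 of 55421 genes were placed with GENCODE M21 (GRCm38).

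Total counts of all 16 libraries were fitted together with edgeR 4.0.16 (R 4.3.3), so that the spread is estimated from 8 groups of 2, with filterByExpr (minimum count 10), TMM scaling and quasi-likelihood F-tests, and p-values were adjusted by Benjamini-Hochberg over the 18150 genes tested. SEs are the absolute log2 fold change divided by the root of F. The allelic test compared both alleles' counts within each library, with a common library size. DESeq2 1.42.0 was an alternative, and other alternatives were other scalings, filters, libraries, a replicate block and leaving out each library. Replicate numbers did not pair day 0 with day 3 (correlation of replicate differences 0.0384 in Wt and -0.133 in Spen-/- cells over 9224 genes), but those of the 2 genotypes correlated by 0.25 at day 0 and -0.0636 at day 3. Both tests were also run on simulated counts with known changes. These changes were set in well-read genes only, and the simulated total counts had less spread between replicates than the data here. The simulation therefore does not cover genes of low count or wide spread. Sequences were read with Python 3.11.15 from a RefSeq table.

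The members and the 25 gene lists were chosen with earlier results of these data known. Named were the 12 largest rises and falls, list members by size of change or level, a set of fixed markers, allelic calls, and the 6 smallest p-values of the genotype difference. Of 430 list entries 429 were found, older names being matched through RefSeq synonyms. Klf5, Tdh, Dppa3, Dppa5a, Lin28a, Epcam, Gata3, Elf5, Stat3, Slc2a1, Krt8-ps, Krt18 in the comparison of genotypes and the genes of the closing observations were named outside this rule, after their values were seen. Values of a few called list members are not reported here.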

Additional observations from a re-analysis of the deposited data

Results flagged for a closer look

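Of 179 genes searched, those named by rule or in the text, 4 had libraries of the 2 genotypes that moved in opposite directions from day 0 to day 3 without overlap. The same search was not run over all 18150 genes, so there is no share to set beside 4 of 179. Whether 4 is more than so few libraries give without a difference was not tested. Otx2 had 55.4 and 107.2 CPM at day 0 and 146.8 and 155.2 at day 3 in Wt cells, against 138 and 119.6, then 91.4 and 107.1, in Spen-/- cells, a difference (Wt minus Spen-/-) of 1.27 on the log2 scale. Lef1, a Wnt effector, had 141.0 and 92.7 CPM, then 91.1 and 82.4, in Wt cells and 63.5 and 52.3, then 70.2 and 75.8, in Spen-/- cells, a difference of -0.764. Dip2c had 6.69 and 4.89 CPM, then 9.24 and 7.68, in Wt cells and 23.3 and 24.8, then 2.31 and 2.37, in Spen-/- cells, a difference of 3.90. Gata3 had 7.99 and 7.40 CPM, then 6.48 and 7.15, in Wt cells and 8.87 and 7.63, then 13.46 and 16.33, in Spen-/- cells, a difference of -1.03. None of the 4 passed edgeR's test of the difference (unadjusted p = 0.179, 0.244, 0.00103 and 0.347 in this order, adjusted p = 1 in each case).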

How the results depend on the processing

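The number of genes called was the least stable result. In Wt cells 251 genes were called, against 949 without a filter, 1136 by DESeq2, 407 without the Spen-/- day 7 libraries, 0 with the compared libraries alone and 30 to 673 when 1 library was left out. In Spen-/- cells 223 became 916, 1047, 397 and 0 in the same order, and 52 to 263 when 1 library was left out. The genotype difference went from 0 calls to 13 without a filter and 2 by DESeq2, and the allelic test from 2 to 10 by DESeq2 and to 0 to 2 when 1 library was left out. With a replicate block the counts were 310 in Wt and 224 in Spen-/- cells, 0 for the genotype difference and 2 in the allelic test, and with the numbers of Spen-/- day 3 crossed, an alternative chosen after seeing the data, 289. The block moved no count by over 1.5 times, and 2 of the 79 genes repeated lost their call.

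The X-linked 129 share changed by -0.0299 after the autosomal median was subtracted, and by -0.0587 to -0.0366 with 1 library left out. The X-linked minus autosomal difference of total counts was 0 without a filter and ranged from -0.166 to -0.0168 with 1 library left out. Of the 65 genes called in Wt cells that the naming rule gave or that were named outside it, none changed sign in any of 845 repeats, and 232 repeats lost the call. The 65 genes were picked as called in the same data, so a change of sign was unlikely from the start and its absence is no test of stability. Of the uncalled fixed markers, Nanog turned to 0.19 without day 0 replicate 1 and 0.17 without day 3 replicate 1 (range -0.46 to 0.19), Pou5f1 to -0.13 without day 0 replicate 2 (-0.13 to 0.73), and Sox17 and Pax6 to 3.90 and 6.61 without day 0 replicate 1 (-7.98 to 3.90 and -1.79 to 6.61). The cause was not tested.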

Other observations

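Some genes of the actin cytoskeleton, which were in none of the lists and were picked after their values were seen, were among the rises. The number of such genes tested was not counted, so nothing is said of the group as a whole. Tropomyosin 1, Tpm1, had 246.9 and 270.6 CPM at day 0 and 1270 and 1065 at day 3 (2.17 ± 0.27, edgeR, adjusted p = 0.0029), and calponin, Cnn1, had 28.2 and 14.8 against 151.2 and 122.7 (2.66 ± 0.51, edgeR, adjusted p = 0.0275). Caldesmon, Cald1, went from 101.7 and 97.3 to 275.8 and 224.1 CPM, the focal adhesion gene Zyx from 36.5 and 19.96 to 141.7 and 116.4, and Pdlim7, a LIM protein on actin filaments, from 181.3 and 162.5 to 390.0 and 428.2. All 5 were also called in Spen-/- cells, with log2 fold changes of 1.97 to 3.59. Tagln, a further smooth muscle gene that is on the fibroblast list, had 2.87 and 3.44 CPM before and 14.8 and 15.6 after, without passing the test (edgeR, adjusted p = 0.0605). Smooth muscle actin, Acta2, on the same list, overlapped between the days, at 129.8 and 47.5 against 113.1 and 115.9 CPM (0.37 ± 0.53, edgeR, adjusted p = 0.833).

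Some genes of Polycomb repressive complex 2 were among the falls, again picked after their values were seen. The other subunits are not given here and the number tested was not counted, so nothing is said of the complex as a whole. Eed went from 487.1 and 527.6 to 202.2 and 195.0 CPM (-1.35 ± 0.26, edgeR, adjusted p = 0.0274) and the accessory gene Mtf2 from 348.3 and 514.8 to 204.2 and 211.3 (-1.05 ± 0.23, edgeR, adjusted p = 0.0456), beside Jarid2. Rbm15, an RNA-binding protein related to SPEN, went from 163.3 and 434.3 to 66.4 and 77.6 CPM (-2.05 ± 0.43, edgeR, adjusted p = 0.0433). In Spen-/- cells Eed, Mtf2 and Rbm15 did not pass (edgeR, adjusted p = 0.1, 0.104 and 0.281), and a difference between genotypes was not shown.

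The median 129 share of autosomal genes was lower at day 3 than at day 0 on 18 of 19 autosomes by the median change per gene, which ranged from -0.0258 to 0, against -0.036 on the X chromosome. Chromosome 12 stood apart at both days, with medians of 0.358 and 0.35 at day 0 and 0.344 and 0.331 at day 3.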
